A study of Homo sapiens with 6 samples.

Results

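The transcripts of 10 chemokines and inflammatory cytokines were followed in PC9, a cell line from a human lung adenocarcinoma whose EGFR gene carries an activating exon deletion. They were CXCL1, CXCL2, CXCL3, CXCL8, CXCL16, CCL20, CCL5, IL6, IL1A and IL18, chosen by gene symbol, and all 10 are among the 16306 genes of the deposited gene table. PC9 cells carrying a negative control shRNA (sh-NC, 3 libraries) were compared with PC9 cells carrying an shRNA against the splicing regulator RBM10 (shRBM10, 3 libraries), to ask what changes when RBM10 is reduced. Both groups thus carry an shRNA, no further treatment is named for either, and the sources do not say which RBM10 shRNA was used. The labels number the libraries of a group as biosamples, and the methods speak in general of independent repeats of each experiment, without a statement on the cultures behind the sequenced libraries. The p-values measure only the spread between these libraries, part of which may be technical. The column names of the table match the sample titles for the sh-NC libraries and for 1 shRBM10 library, so the shRBM10 libraries are called A, B and C. The protocol text speaks of retinas although every sample is labelled PC9.

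Chemokines are small secreted proteins that draw leukocytes along a gradient by binding receptors on their surface. CXCL1, CXCL2, CXCL3 and CXCL8 attract mainly neutrophils through CXCR1 and CXCR2, CCL5 attracts T cells and monocytes, and CCL20 attracts cells that carry CCR6. IL6, IL1A and IL18 are cytokines that spread an inflammatory signal to neighbouring cells, and epithelial cells and the tumors that arise from them can make many of them. Many of these genes are switched on by NF-kappaB, and many of their mRNAs are short-lived because of AU-rich elements in the 3′ UTR.

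CXCL8, CXCL1, CXCL3 and CXCL2 lie in 1 cluster on chromosome 4 (GRCh38, GENCODE release 29), at chr4:73740506-73743716 and chr4:73869393-73871242 on the plus strand and chr4:74036589-74038807 and chr4:74097035-74099293 on the minus strand. The coding sequences of CXCL1, CXCL2 and CXCL3 are 324 bases each and were compared base by base, because near-identical genes can exchange reads when reads are counted. CXCL1 and CXCL2 were identical at 93.5% of positions, CXCL2 and CXCL3 at 94.4% and CXCL1 and CXCL3 at 90.7%. The stretch of coding bases 100 to 189, which runs across the junction of exons 1 and 2 of 4, is shown with capitals at the 8 positions where the copies are not all alike.
CXCL1 (chr4:73869570-73869757, plus strand): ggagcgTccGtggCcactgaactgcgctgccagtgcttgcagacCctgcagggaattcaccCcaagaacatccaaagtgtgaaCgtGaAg
CXCL2 (chr4:74098834-74099021, minus strand): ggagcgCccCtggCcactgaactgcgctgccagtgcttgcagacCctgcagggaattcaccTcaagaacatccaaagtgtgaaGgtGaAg
CXCL3 (chr4:74038325-74038512, minus strand): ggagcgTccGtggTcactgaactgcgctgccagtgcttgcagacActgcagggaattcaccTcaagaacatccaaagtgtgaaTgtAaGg
Of all 50-base runs of the CXCL1 transcript, 5.73% also occur in CXCL2 and 0.573% in CXCL3, and of those of CXCL3 5.26% occur in CXCL2. Reads from such shared runs could come from either gene, and how the authors' counting treated them is not given in the sources used here. The counts of CXCL1, CXCL2 and CXCL3 may thus be uncertain, and an exchange of reads between them was not tested.

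Promoter sequences (RefSeq, GRCh38.p14, 250 bases before to 50 after the start) were matched for 7 of the 10 genes, and CXCL16, CCL5 and IL18 were not matched. The NF-kappaB consensus (kappaB motif, both strands) was found in 5 of the 7, namely CXCL1, CXCL2, CXCL3, CCL20 and IL6, and in 11.3% of all 35116 promoters of the table. The stretch from 110 to 51 bases before the start is shown for 4 of them, with the match in capitals, because CXCL1, CXCL2 and CXCL3 share the motif at nearly the same place and IL6 holds a single match at a similar distance.
CXCL1 (chr4:73869283-73869342, plus strand): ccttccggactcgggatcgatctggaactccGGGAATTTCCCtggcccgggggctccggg
CXCL2 (chr4:74099246-74099305, minus strand): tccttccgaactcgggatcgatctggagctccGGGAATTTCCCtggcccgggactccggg
CXCL3 (chr4:74038740-74038799, minus strand): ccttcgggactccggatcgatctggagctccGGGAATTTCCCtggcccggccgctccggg
IL6 (chr7:22727090-22727149, plus strand): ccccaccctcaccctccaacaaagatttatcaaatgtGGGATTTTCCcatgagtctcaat
In CXCL1, CXCL2 and CXCL3 the capitals are a pair of overlapping matches. The AP-1 motif (TGANTCA, both strands) was found in CXCL8 and IL1A and in 7.71% of all promoters, and the interferon-stimulated response element (ISRE, both strands) in 0 of the 7 and in 3.57% of all promoters. The letters TATAAA on the gene's own strand were found in CXCL8, CCL20 and IL1A and in 7.33% of all promoters. A match is a stretch of letters and not a measured binding site. A stretch that misses a motif at a single base is not counted, such as tggaatttcc in CXCL8 for the kappaB motif.

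The 3′ UTR carries the letters ATTTA, the core of the AU-rich element, in 8 of the 10 genes and in 72.3% of the 12307 tested genes with an annotated 3′ UTR, where the median is 2. CXCL2 has 10 of them, CXCL8 has 9, CXCL3 has 7, IL6 has 6, CXCL1 and IL1A have 5 each, CCL20 has 3 and CXCL16 has 1. CCL5 and IL18, at the other end, have 0. The longer form ATTTATTTA was found in 3 of the 10 genes, CXCL2, CXCL1 and CXCL8, and in 7.52% of the tested genes. The 30 bases around it, all in exon 4 of 4, are shown with the overlapping copies in capitals.
CXCL1 (chr4:73870674-73870703, plus strand): agtcttctATTTATTTATTTAttcattagt
CXCL2 (chr4:74097585-74097614, minus strand): ttctATTTATTTATTTATTTATTTAtttgt
CXCL8 (chr4:73743119-73743148, plus strand): ttatttatgtATTTATTTAagcatcaaata

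The libraries held between 16606390 and 18864243 counts on genes, and the libraries of a group were not alike. The sh-NC replicate 2 library had a TMM factor of 0.738, against 1.03 to 1.08 in the other 5 libraries. Across genes, the level relative to the mean of all libraries rose with the GC content of the gene in the 3 sh-NC libraries and in shRBM10 library C (Spearman's rho, from 0.379 to 0.512 over 12570 genes) and fell with it in libraries A and B (-0.728 and -0.676). Genes are not independent replicates, so these values are descriptions. RBM10 itself had 1578, 864 and 1628 counts in sh-NC against 523, 537 and 700 in shRBM10, and its groups did not overlap. Its log2 fold change was -1.24 (standard error 0.23, edgeR adjusted p = 0.10, DESeq2 adjusted p = 0.00157). Over the 13 alternative settings the log2 fold change of RBM10 lay between -1.43 and -0.96. The epithelial markers were all present, with KRT8 at 162988 to 347195 counts, while the leukocyte marker PTPRC had 0 to 7 counts and, of 7 retinal markers, 4 were not listed, PDE6B had 0 to 1 counts, CRX 0 to 3 and NRL 64 to 115. NRL had 105, 115 and 94 counts in sh-NC against 64, 65 and 78 in shRBM10. CD68, a lysosomal protein that is also made outside leukocytes, had 1795 to 2442 counts. Of 4 tested fibroblast and endothelial markers, CDH5 and VWF had negative log2 fold changes with an unadjusted p under 0.05 and a fold over the limit. So did 1.53% of all genes tested. The summed level of the list was 8.50 to 17.03 CPM in sh-NC and 8.60 to 14.6 in shRBM10. Their part in the results was not tested.

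The 10 transcripts fell into an abundant and a scarce set. Levels of different genes were compared as TPM, which corrects for transcript length, using the authors' mean per group, for which no spread was taken. In sh-NC the mean TPM was 60.4 for CXCL16, 59.9 for IL18, 41.4 for CCL5 and 33.6 for CXCL8. CXCL16, a transmembrane chemokine, and IL18 were thus at the top. The order of these 4 is not firm, since the SD between libraries, on normalized counts, was 36.6% of the mean for IL18, 54.5% for CCL5 and 32.8% for CXCL8, wider than the steps between neighbours, and 2.31% for CXCL16. In shRBM10 the mean TPM was 84.3 for IL18, 74.7 for CCL5, 59.1 for CXCL16 and 37.97 for CXCL8. TPM means serve here to compare genes within a group, and fold changes between groups were not taken from them. For CXCL8 the 2 measures differ in direction, with 45.0 CPM in sh-NC and 40.8 in shRBM10. A wide step separated these from CXCL1 (3.40 in sh-NC and 6.29 in shRBM10), IL6 (2.71 and 3.50) and CXCL2 (1.59 and 2.05). CXCL3 (0.34 and 0.41), IL1A (0.21 and 0.327) and CCL20 (0.143 and 0.163) were at the bottom. CXCL3, with 1 to 8 counts, and CCL20, with 1 to 2 counts, were under 10 counts in all 6 libraries, and IL1A, with 5 to 10 counts, in 5 of 6. These 3 genes did not pass edgeR's filter on low counts and were not tested, and the other 7 were.

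**Figure D1:**
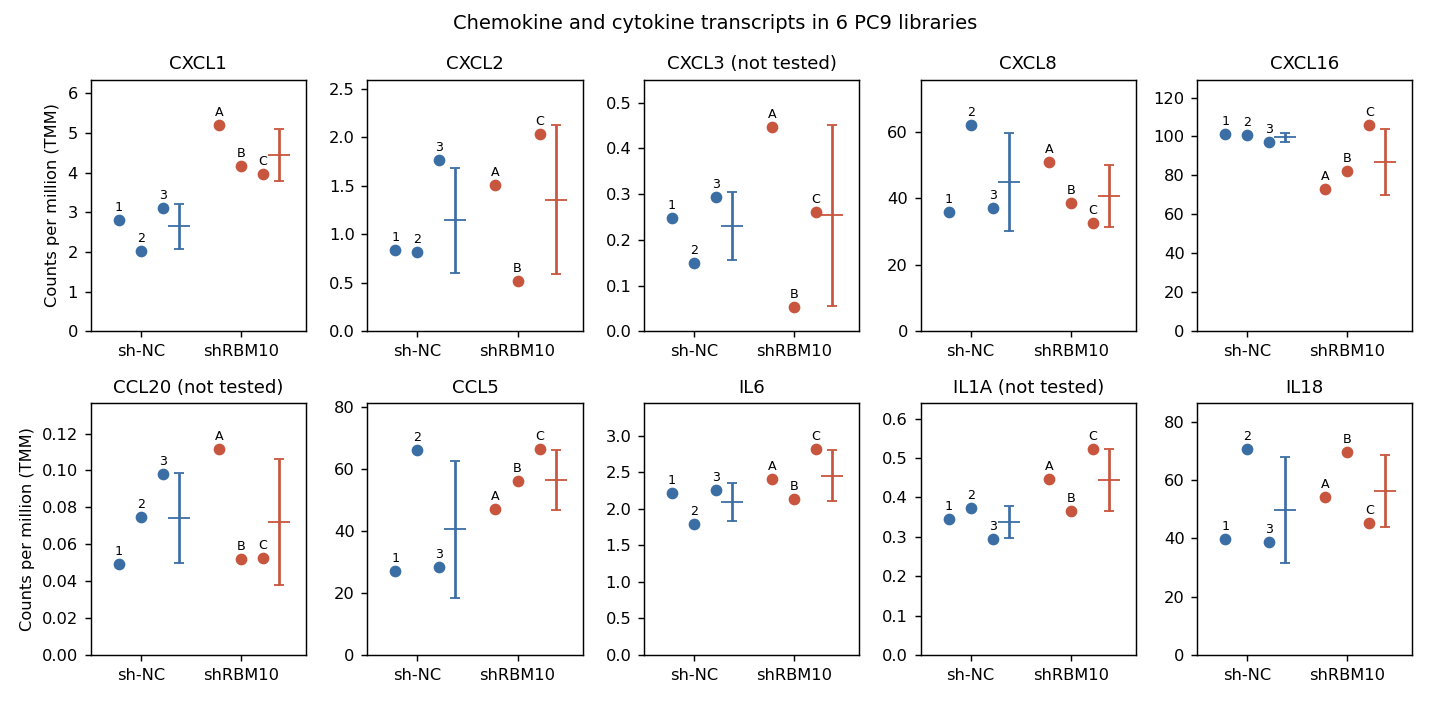
Normalized counts (CPM, counts scaled by library total and TMM factor, linear axis from 0, a scale of its own in each panel) of the 10 transcripts in the 3 sh-NC libraries (1 to 3) and the 3 shRBM10 libraries (A to C), with each point 1 library and the bar the mean ± SD (n = 3). Of the 7 tested transcripts the groups are apart in CXCL1 alone, where the sh-NC libraries lie at 2.01 to 3.09 and the shRBM10 libraries at 3.97 to 5.20.

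Among the neutrophil-attracting chemokines, CXCL1 was higher in every shRBM10 library, although it did not pass the threshold. CXCL1 (Entrez gene 2919) was counted 57, 27 and 63 times in sh-NC replicates 1, 2 and 3, against 93, 80 and 76 times in libraries A, B and C of shRBM10. The plot of normalized counts by library shows the groups apart, with library A highest and sh-NC replicate 2 lowest. Its normalized count was 2.64 ± 0.561 CPM (counts scaled by library total and TMM factor) in sh-NC and 4.45 ± 0.657 in shRBM10 (SD, n = 3), and a two-sided exact permutation test gave p = 0.1, which is as low as 3 against 3 libraries can go. The log2 fold change was 0.74 (standard error 0.31, 95% interval 0.057 to 1.43), with an unadjusted p of 0.0365 and a Benjamini-Hochberg adjusted p of 0.189 over all genes in edgeR's quasi-likelihood test. CXCL1 was the only 1 of the 7 tested transcripts with an unadjusted p under 0.05, a share below the 24.3% of all genes tested that met this rule. Without sh-NC replicate 2, its lowest library, the log2 fold change was 0.50 (edgeR adjusted p = 0.265).

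CXCL2 (Entrez gene 2920), closer to CXCL1 in coding sequence than CXCL3 is, did not show this separation. It had 17, 11 and 36 counts in sh-NC against 27, 10 and 39 in shRBM10, so each group held both low and high libraries. The normalized count was 1.14 ± 0.542 CPM in sh-NC and 1.36 ± 0.770 in shRBM10 (SD, n = 3). The log2 fold change of 0.23 had a standard error of 0.52 and a 95% interval from -0.93 to 1.38 (edgeR adjusted p = 0.790), an interval that takes in log2 changes above 1. With 1 library left out it lay between -0.26 (without library C) and 0.70 (without sh-NC replicate 3). CXCL3 (Entrez gene 2921) showed 5, 2 and 6 counts in sh-NC against 8, 1 and 5 in shRBM10, too few to compare.

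CXCL8 (Entrez gene 3576), also known as interleukin-8, had the highest TPM of the neutrophil attractants. It had 728, 833 and 755 counts in sh-NC against 914, 738 and 626 in shRBM10. In CPM the values were 35.9, 62.1 and 37.1 in sh-NC against 51.1, 38.5 and 32.7 in shRBM10. The highest library was sh-NC replicate 2 and the lowest shRBM10 library C, and the groups overlapped. The normalized count was 45.0 ± 14.8 in sh-NC and 40.8 ± 9.38 in shRBM10 (SD, n = 3), with a log2 fold change of -0.14 (standard error 0.29, 95% interval -0.80 to 0.51, edgeR adjusted p = 0.765). CXCL8 also has the lowest GC content of the 7 tested transcripts, 37.1%, and after the trend of each library on GC content was removed its log2 fold change was -0.95 (edgeR unadjusted p = 0.0363, adjusted p = 0.254). The transcript table assigned 95.1% to 98.0% of its counts to NM_000584 in every library.

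CXCL16 (Entrez gene 58191, chr17:4733526-4739922, minus strand) differs from the others in being made as a membrane protein that can be shed to attract cells bearing CXCR6. Its CPM values were 101.2, 100.7 and 97.0 in the sh-NC libraries and 72.9, 82.4 and 105.9 in shRBM10 libraries A, B and C. The sh-NC libraries were nearly equal, libraries A and B lay below them and library C above. The means were 99.6 ± 2.30 in sh-NC and 87.0 ± 16.98 in shRBM10 (SD, n = 3), with a log2 fold change of -0.20 (standard error 0.22, 95% interval -0.69 to 0.30, edgeR adjusted p = 0.577). Libraries A and B are also those whose levels fell with GC content, and CXCL16 has a GC content of 56.6%. With the trend on GC content removed the log2 fold change was 0.019. Of its counts, 83.1% to 92.0% were assigned to NM_001386809.

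CCL5 (Entrez gene 6352, chr17:35871491-35880793, minus strand), known as RANTES, had a comparison that turned on sh-NC replicate 2. It had 547, 885 and 580 counts in sh-NC against 841, 1074 and 1272 in shRBM10. In CPM this was 27.0, 66.0 and 28.5 in sh-NC against 47.0, 56.0 and 66.5 in shRBM10. All 3 shRBM10 libraries lay above sh-NC replicates 1 and 3, and sh-NC replicate 2 lay within the range of shRBM10. The means were 40.5 ± 22.1 in sh-NC and 56.5 ± 9.76 in shRBM10 (SD, n = 3), with a log2 fold change of 0.48 (standard error 0.36, 95% interval -0.31 to 1.28, edgeR adjusted p = 0.390). Without sh-NC replicate 2 it was 0.95 (edgeR unadjusted p = 0.00225, adjusted p = 0.108), still short of the adjusted threshold, and without sh-NC replicate 1 or 3 it was 0.26 and 0.28. Under each of the 13 alternative settings its log2 fold change was positive, from 0.26 to 0.95.

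The transcript table divides CCL5 between 4 entries. These are NM_002985, NM_001278736 and a second entry of each, whose name ends in -2 and whose difference from the first the table does not explain. The second entries held 64.1%, 4.98% and 52.6% of the CCL5 counts in sh-NC, compared with 89.8%, 80.3% and 93.8% in shRBM10. Their share was thus lowest in sh-NC replicate 2 and higher in each shRBM10 library than in each sh-NC library. The gene count equals the sum over the entries to within 0.35 counts, so the gene-level values do not depend on this division. How reads are divided between such entries is an estimate, and no test was made on it.

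**Figure D2:**
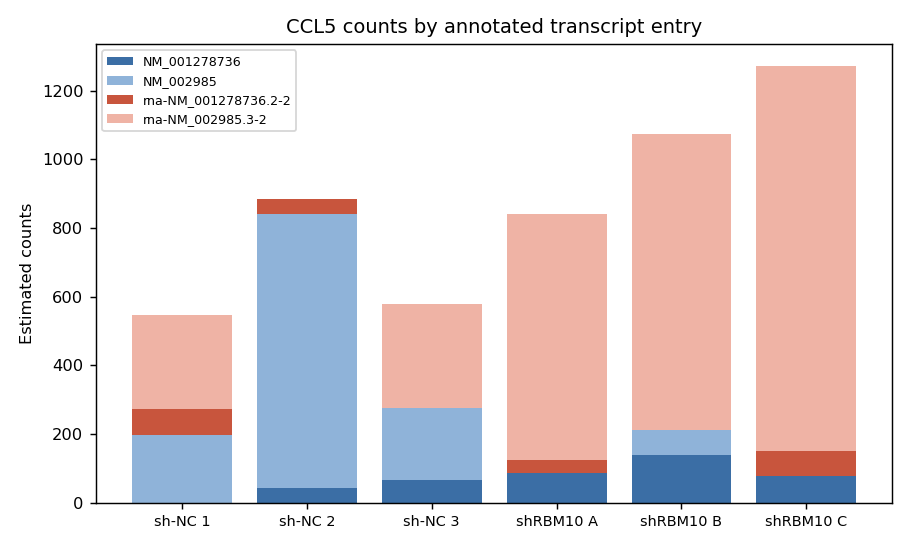
Estimated counts of CCL5 (linear axis from 0) in each library, stacked by the 4 annotated transcript entries, with the second entries, whose names end in -2, in red shades. The second entries hold 4.98% of the bar of sh-NC replicate 2 and 80.3% to 93.8% of the shRBM10 bars.

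CCL20 (Entrez gene 6364, chr2:227805739-227817564, plus strand) had 1, 1 and 2 counts in sh-NC against 2, 1 and 1 in shRBM10. These counts are too few to compare, and at this depth a decrease could not have been detected. The receptor CCR6, through which CCL20 acts, had 0 to 2 counts.

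Of the cytokines, IL6 (Entrez gene 3569, chr7:22725884-22732002, plus strand), an inducer of the acute phase response, had 45, 24 and 46 counts in sh-NC against 43, 41 and 54 in shRBM10. The normalized count was 2.09 ± 0.261 CPM in sh-NC and 2.45 ± 0.345 in shRBM10 (SD, n = 3). The groups overlapped at 2.22 and 2.26 in sh-NC replicates 1 and 3 and 2.14 in shRBM10 library B. The log2 fold change was 0.23 (standard error 0.30, 95% interval -0.44 to 0.90, edgeR adjusted p = 0.634). Without sh-NC replicate 2 it was 0.050, without library C 0.057, and with the trend on GC content removed -0.10. IL1A (Entrez gene 3552, chr2:112773915-112784590, minus strand), an alarm signal that dying epithelial cells release, had 7, 5 and 6 counts in sh-NC against 8, 7 and 10 in shRBM10. These few counts were not tested, and in the fit without a filter on low counts the log2 fold change was 0.40 (edgeR adjusted p = 0.649).

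IL18 (Entrez gene 3606, chr11:112143251-112164117, minus strand), which is stored as an inactive precursor in epithelial cells, had 805, 948 and 786 counts in sh-NC against 966, 1335 and 863 in shRBM10. In CPM this was 39.7, 70.6 and 38.6 in sh-NC against 54.0, 69.6 and 45.1 in shRBM10. As in CCL5, the 3 shRBM10 libraries lay above sh-NC replicates 1 and 3, and sh-NC replicate 2 stood at the height of the highest shRBM10 library. The means were 49.7 ± 18.2 and 56.2 ± 12.4 (SD, n = 3), with a log2 fold change of 0.18 (standard error 0.30, 95% interval -0.49 to 0.85, edgeR adjusted p = 0.706). Without sh-NC replicate 2 it was 0.44 (edgeR adjusted p = 0.245), and with the trend on GC content removed it was -0.54 (edgeR adjusted p = 0.441). IL18 has a GC content of 41.3%. Its counts were assigned to NM_001562 at 87.1% to 89.8% in every library.

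Over the 7 tested transcripts, 5 had a positive and 2 a negative log2 fold change, with a median of 0.23, against 0.027 over all 12620 genes tested. At edgeR's adjusted p under 0.05 and a log2 fold change beyond 1 in either direction, 0 of the 7 were called, where 0.0158% of all genes (2 genes) were. With the unadjusted p under 0.05 in its place, and the fold limit kept, there were again 0 of 7, against 11.6% of all genes in either direction, 10.1% higher and 1.53% lower in shRBM10. DESeq2 called 0 of 7 and 4.64% of the genes to which it gave an adjusted p. The groups did not overlap in 1 of 7, CXCL1, against 30.1% of all genes in either direction and 13.8% higher in shRBM10. The 95% interval lay within a log2 change of 1 in either direction for 4 of the 7, CXCL8, CXCL16, IL6 and IL18. For CXCL1, CXCL2 and CCL5 it reached above 1. In bulk RNA, fewer cells that make a transcript and less of it per cell cannot be told apart.

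**Figure D3:**
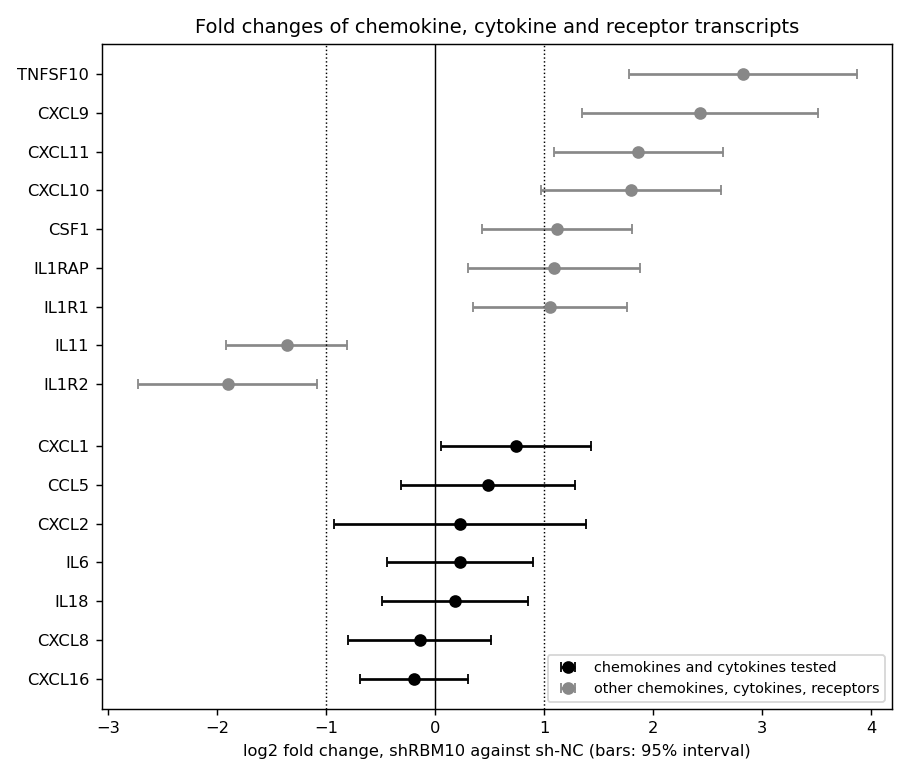
Log2 fold change of shRBM10 against sh-NC (points) with its 95% interval (bars) from edgeR for the 7 tested chemokine and cytokine transcripts (black) and for 9 other chemokine, cytokine and receptor transcripts (grey), with dotted lines at -1 and 1. The black points lie between -0.20 and 0.74, and the grey ones reach from -1.90 for IL1R2 to 2.82 for TNFSF10. The grey transcripts were drawn because they had an unadjusted p under 0.05 in edgeR with a fold over the limit. Their wider reach follows from that choice.

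Most other chemokines were scarce in these cells. Of 35 listed, 16 were in the table, 8 of them under 10 counts in every library, and 5 were tested. All 5 had a positive log2 fold change, with a median of 1.80. CXCL9, CXCL10 and CXCL11, the interferon-induced chemokines that attract T cells through CXCR3, had an unadjusted p under 0.05 with a fold over the limit. Of all genes tested 11.6% met this rule, and 0 of the 5 passed the adjusted threshold in edgeR. CXCL10 had 35, 48 and 36 counts in sh-NC against 154, 175 and 125 in shRBM10 (log2 fold change 1.80, standard error 0.37, edgeR adjusted p = 0.118, DESeq2 adjusted p = 0.00148). CXCL11 had 18, 19 and 24 counts against 90, 86 and 59 (1.86, standard error 0.35, edgeR adjusted p = 0.10, DESeq2 adjusted p = 0.00319). In both, every shRBM10 library exceeded every sh-NC library on normalized counts, as held for 13.8% of all genes tested. CXCL9 had 5, 3 and 3 counts against 30, 18 and 15 (2.43, standard error 0.48, edgeR adjusted p = 0.114). All 3 of its sh-NC libraries were under 10 counts, so it passed the filter on low counts through shRBM10 alone. Its direction was thus set by the filter, and the 5 positive values are not a test of direction. With the trend on GC content removed the log2 fold changes were 1.03 for CXCL10, 1.12 for CXCL11 and 1.72 for CXCL9. Overlap of the groups is not given at this setting. CCL5, which is also counted among interferon-induced chemokines, had its 0.48 beside these values, and no test of a difference between genes was made.

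Of 29 other cytokines 14 were tested, 6 with a positive and 8 with a negative log2 fold change and a median of -0.032. TNFSF10, the death ligand TRAIL, had 18, 6 and 5 counts in sh-NC against 75, 86 and 52 in shRBM10 (log2 fold change 2.82, edgeR adjusted p = 0.0894). It was under 10 counts in 2 sh-NC libraries, so it too passed the filter on low counts through shRBM10. CSF1, a growth factor of macrophages, had 276, 123 and 327 counts against 486, 421 and 675 (1.12, edgeR adjusted p = 0.153). In the opposite direction, IL11, a relative of IL6 that signals through the same coreceptor, had 1408, 1075 and 1386 counts against 470, 434 and 684 (-1.36, standard error 0.25, edgeR adjusted p = 0.10, DESeq2 adjusted p = 0.000831). The groups did not overlap in any of these 3, against 30.1% of all genes in either direction. Over the alternative settings the log2 fold change lay between 2.24 and 3.48 for TNFSF10, 0.84 and 1.33 for CSF1, and -1.61 and -1.06 for IL11. None of the 14 passed the adjusted threshold in edgeR. At the unadjusted p with the fold limit 3 passed, against 11.6% of all genes. DESeq2 called 3, against 4.64% of the genes to which it gave an adjusted p.

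The receptors of the neutrophil attractants were at or near 0. CXCR2 had 0 to 1 counts, and CXCR1 was not listed. CXCR6, the receptor of CXCL16, also had 0 to 1 counts. The IL-1 receptors were measurable. Of the 9 tested receptors and soluble partners, 3 passed at the unadjusted p with the fold limit, against 11.6% of all genes. In edgeR 0 of the 9 passed the adjusted threshold. IL1R1, the signaling receptor of IL1A, had 87, 58 and 121 counts in sh-NC against 201, 227 and 137 in shRBM10 (log2 fold change 1.05, edgeR adjusted p = 0.153, DESeq2 adjusted p = 0.0548). IL1RAP, its coreceptor, had 47, 27 and 56 against 115, 108 and 59 (1.09, edgeR adjusted p = 0.156, DESeq2 adjusted p = 0.0871). IL1R2, the decoy receptor that binds IL-1 without signaling, had 119, 151 and 106 counts against 37, 38 and 36 (-1.90, standard error 0.37, edgeR adjusted p = 0.108, DESeq2 adjusted p = 0.000762). On normalized counts the signaling chain and its coreceptor were higher and the decoy lower in every shRBM10 library than in every sh-NC library. These 3 were named because they passed the unadjusted rule. The groups did not overlap in 5 of the 9 tested, against 30.1% of all genes in either direction. The closest values were 3.08 CPM in library C and 2.75 in sh-NC replicate 3 for IL1RAP, and 7.16 and 5.94 for IL1R1. The IL1A count was at most 10. With the trend on GC content removed the log2 fold changes were 0.39 for IL1R1 and 0.38 for IL1RAP, and overlap of the groups is not given.

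Among 10 tested genes of maturation and release, 0 passed the adjusted threshold in edgeR. At the unadjusted p with the fold limit 2 passed, against 11.6% of all genes. ADAM10, the protease that sheds CXCL16, had a log2 fold change of 1.40 (edgeR adjusted p = 0.169) and CASP4, an inflammatory caspase, 1.12 (edgeR adjusted p = 0.186), with overlapping groups in CASP4. Removing the trend on GC content gave 0.80 and 0.33. Of 16 transcription regulators, 9 had a positive and 7 a negative log2 fold change. At the unadjusted p with the fold limit 3 of the 16 passed, against the same 11.6%. FOSL1, a subunit of AP-1, had 1634, 1157 and 1573 counts in sh-NC against 534, 546 and 709 in shRBM10 (-1.36, edgeR adjusted p = 0.0894, DESeq2 adjusted p = 0.000146). Over the alternative settings the FOSL1 value lay between -1.53 and -1.07. NFKBIZ, a nuclear cofactor of NF-kappaB, had 1.12 and REL, an NF-kappaB subunit, 1.20, with overlapping groups in REL, whose value was 0.44 with the trend on GC content removed. Of 11 proteins that bind AU-rich mRNAs or cut short-lived ones, 0 passed either rule, and the smallest p-values were those of ZC3H12A (log2 fold change 0.57, edgeR adjusted p = 0.194) and RC3H1 (0.95, edgeR adjusted p = 0.202). Removing the trend on GC content gave 0.87 and 0.22.

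The plot of fold changes by setting shows which of these values held their direction. CXCL1 lay between 0.50 and 0.87 over the 13 alternatives and CCL5 between 0.26 and 0.95, and both stayed positive. The other 5 changed sign in at least 1 setting. Without sh-NC replicate 2, the groups did not overlap in 3 of the 7 transcripts, CXCL1, CCL5 and IL18, against 46.8% of all genes. With the trend on GC content removed they did not overlap in 4, CXCL1, CCL5, CXCL8 and CXCL16, against 28.4% of all genes. Both figures at this setting may not match its fit, in which CXCL16 had a log2 fold change of 0.019 (edgeR unadjusted p = 0.893). No conclusion is drawn from them. The lowest adjusted p of any of the 7 in any setting was 0.108, that of CCL5 without sh-NC replicate 2.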

How the data were processed

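RNA-seq of PC9 sh-NC and PC9 shRBM10 cells (3 libraries each) was analysed. The authors deposited a table of genes and one of transcripts holding estimated counts, 3 normalized measures per library and mean TPM per group. The submitters' notes name the build hg38. The aligner and the counting tool are not given in the sources used here, and 2 library kits are described, 1 of them directional. Of the estimated counts deposited for genes, 87.5% are whole. Counts were rounded, filtered with filterByExpr, TMM-normalized and tested with edgeR 4.0.16 (quasi-likelihood test, limma 3.58.1, R 4.3.3), checked first on simulated counts. The simulated counts held no trend on GC content, so the check does not cover that trend. Genes were called where the adjusted p was below 0.05 and the log2 fold change beyond 1 in either direction. TPM is the authors' mean per group, as deposited, and 18 other columns per library in the gene table were not used. Alternatives were DESeq2 1.42.0, limma-voom, RLE factors, library size only, other filters, each library left out and the trend on GC content removed. Members and gene lists were chosen with earlier results of these data known. Named from each list were the genes with an unadjusted p under 0.05 and a fold over the limit, up to 4 by p-value, or else the 2 smallest p-values. Intervals cover the fitted spread between libraries only.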

Additional observations from a re-analysis of the deposited data

How the results depend on the processing

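Of the 91 fold changes of the 7 tested transcripts under 13 alternatives, 8 had the opposite sign. With 1 library left out, CXCL2 ranged from -0.26 (library C of shRBM10 left out; -0.028 for sh-NC replicate 2) to 0.70, CXCL8 from -0.34 to 0.072 (sh-NC replicate 2 left out) and IL18 from -0.0028 (library B of shRBM10 left out) to 0.44. CXCL8 was 0.050 with library size only. With the trend on GC content removed, CXCL16 was 0.019, IL6 -0.10 and IL18 -0.54. Library size only moved the median of all genes by 0.131. The number of genes called by edgeR was 2 with all libraries (DESeq2 with its own size factors called 574), 0 with library size only (2364 at an unadjusted p under 0.05), 31 without a filter on low counts, 1 with the GC trend removed, and 0 to 23 with 1 library left out (23 without sh-NC replicate 2, 5 without replicate 1, 0 without replicate 3 or any shRBM10 library, where 1117 to 4612 genes had an unadjusted p under 0.05). At the unadjusted p with the fold limit the split was 1272 higher and 193 lower, and 324 and 280 with the GC trend removed. The groups did not overlap in 1 of the 7 transcripts, in 2 with library size only (27.2% of all genes), in 4 with the GC trend removed (28.4%), and in 1 to 3 with 1 library left out (32.5% to 63.5%, the highest without library C, where 2 of the 7 did not overlap). The cause was not tested, and the count of 4 with the GC trend removed may not match the fit at that setting. The 7 transcripts had 0 calls in every setting. No paired analysis was possible because the columns of shRBM10 libraries B and C carry no replicate number. Depth left CXCL3, CCL20 and IL1A untested.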
